A study of Homo sapiens with 8 samples.

Results

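The 10 genes described here belong to the Notch pathway and were chosen by name: the receptors NOTCH1, NOTCH2 and NOTCH3, the ligands JAG1, JAG2 and DLL1, and the transcriptional repressors HES1, HES6, HEY1 and HEY2. The choice was made with earlier results of these data known. All 10 were present in the table of 60332 genes, and 7 of them passed the filter for testing, as 15372 genes did in all. RNA was sequenced in SK-N-MC, an established cell line from Ewing sarcoma, a tumor of bone and soft tissue. Per the labels, knockdown cells carried dCas9-KRAB, a dead Cas9 joined to a repressor domain, and control cells the empty vector, although the study's text calls the controls parental. The vectors were delivered by lentivirus at a multiplicity of infection of 10, and cells were selected with 1 µg/ml puromycin for 3 days and used within 5 passages as polyclonal pools. The 8 libraries form 4 groups of 2: normoxic control cells, control cells in hypoxia of 1% O2 for 16 h, eKD1 cells in the same hypoxia, and eKD2 cells in the same hypoxia. In eKD1 and eKD2 (enhancer knockdown), a different guide each sent the repressor to DNA beside the GGAA repeat enhancer of LOXHD1. No eKD library from normoxia was analysed here, so a change with oxygen could be measured in control cells only.

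Notch receptors sit at the cell surface and are activated by Jagged (JAG) or Delta-like (DLL) ligands on a neighboring cell. Binding leads metalloproteases and then γ-secretase to cut the receptor, and the freed intracellular part enters the nucleus, joins the DNA-binding protein RBPJ and turns on genes such as those of the HES and HEY families. Most HES and HEY proteins are basic helix-loop-helix repressors that switch off other genes, including proneural factors and, for HES1, the HES1 gene itself. HES6 is the atypical member, which can inhibit HES1 and is not usually induced by Notch.

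LOXHD1, the gene whose enhancer was targeted, stood at 156 and 169 FPKM (fragments per kilobase, a unit that corrects for transcript length and sequencing depth) in control normoxia, 93.0 and 91.1 FPKM in control hypoxia, 17.3 and 15.0 with eKD1, and 11.7 and 11.8 with eKD2, so the knockdown groups did not overlap with either control group. All 7 textbook targets of hypoxia-inducible factor that were looked at rose in hypoxia, and all 7 genes typical of Ewing sarcoma were above the filter. Of these 7, 5 were called lower and 1 (CD99) higher in hypoxia, where 16% of all genes were called lower and 16.2% higher. None was called in eKD1 by limma, beside 0.0651% of all genes. There 5 were at an unadjusted p under 0.05, as were 3337 of all 15372 genes tested. In eKD2 NR0B1 and LIPI were called higher and CD99 lower, beside 9.61% of all genes called in either direction and 5.8% called higher. NR0B1 and LIPI were lowest in control hypoxia, as HES1 was: NR0B1 was at 64.5 and 55.6 FPKM in control normoxia, 32.5 and 32.0 FPKM in hypoxic control cells, and 48.4 to 71.6 FPKM in the eKD libraries. LIPI was at 49.5 and 57.2 FPKM, 10.8 and 11.2 FPKM, and 19.0 to 26.5 FPKM in that order. FLI1 and STEAP1 were also lowest in control hypoxia, but the other Ewing sarcoma genes were not set apart in that way. CD99 was highest there, at 417 and 406 FPKM against 305 to 333 FPKM in the other groups. In control hypoxia NKX2-2 overlapped with eKD2, and PRKCB with eKD1. Of the genes that mark other cell types, endothelial markers, with TEK at 0, summed to 0.638 and 0.639 FPKM in control normoxia, 0.304 and 0.323 FPKM in hypoxic control cells, 0.977 and 0.937 FPKM with eKD1, and 1.07 and 0.831 FPKM with eKD2. Leukocyte markers were dominated by PTPRC, which encodes CD45, with CD3E at 0 throughout, and the 4 genes together summed to 24.2 and 25.4 FPKM in control normoxia, 5.98 and 6.28 FPKM in hypoxic control cells, 11.8 and 11.4 FPKM with eKD1, and 15.2 and 14.8 FPKM with eKD2. The 5 epithelial markers, mostly KRT18 and with KRT5 at 0, summed to 126 and 125 FPKM, 85.4 and 88.0 FPKM, 147 and 152 FPKM, and 128 and 127 FPKM in the same order. All 3 sums were lowest in control hypoxia, as was HES1, but each followed mainly 1 gene, which was CDH5 in the endothelial list. ITGAM went otherwise, at 0.473 and 0.494 FPKM in control hypoxia and 0.0309 to 0.104 FPKM in the eKD libraries. KDR was at 0.117 and 0.0260 FPKM in control normoxia and 0.128 and 0.232 FPKM in hypoxic control cells. For EPCAM, KRT8 and CDH1 the libraries of these control groups overlapped. The part of these markers and of the Ewing sarcoma genes in the results was not tested. The FPKM of all genes summed to 865107 and 877580 in the normoxia libraries and to between 953073 and 1041457 in the hypoxia libraries.

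The promoters of HES1, HES6 and HES4 are printed because these HES family genes moved in different directions in hypoxia. Each is the 250 bases directly before the RefSeq transcription start on GRCh38.p14, written 5′ to 3′ on the strand of the gene: chr3:194135898-194136147 (+) for HES1, chr2:238240039-238240288 (-) for HES6, and chr1:1000098-1000347 (-) for HES4. Capitals mark TGGGAA, the core of the site that RBPJ recognises, and ACGTG, the core of the hypoxia response element, on either strand.
HES1: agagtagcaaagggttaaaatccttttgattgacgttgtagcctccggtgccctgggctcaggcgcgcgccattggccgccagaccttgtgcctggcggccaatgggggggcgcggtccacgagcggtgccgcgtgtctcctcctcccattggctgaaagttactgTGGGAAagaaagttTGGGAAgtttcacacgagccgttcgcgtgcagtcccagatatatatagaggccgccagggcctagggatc
HES6: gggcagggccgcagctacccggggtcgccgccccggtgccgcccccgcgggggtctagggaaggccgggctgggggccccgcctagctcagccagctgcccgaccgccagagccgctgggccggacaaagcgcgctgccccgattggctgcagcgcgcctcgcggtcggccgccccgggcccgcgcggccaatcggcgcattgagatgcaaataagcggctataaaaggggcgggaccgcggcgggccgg
HES4: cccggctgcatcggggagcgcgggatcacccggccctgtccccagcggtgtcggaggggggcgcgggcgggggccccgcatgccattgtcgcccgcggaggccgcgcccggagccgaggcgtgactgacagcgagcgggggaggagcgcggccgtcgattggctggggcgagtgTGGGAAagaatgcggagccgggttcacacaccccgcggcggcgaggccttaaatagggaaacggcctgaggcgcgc
HES1 held TGGGAA at positions -84 to -79 and again at -70 to -65 before its start, and HES4 held it once, at -76 to -71. HES6 held neither core. The HES1 window also had 3 matches to the N-box CACNAG and 4 to CACGNG, the class of site bound by HES and HEY proteins, with 2 of the former lying on the same 6 bases as 2 of the latter. Promoters were found for 8 of the 10 genes, all but DLL1 and HEY1. Among the others, HEY2 had TGGGAA on the opposite strand at -213 to -208, JAG1 had ACGTG at -116 to -112, NOTCH3 had 1 match to CACNAG that was also its 1 match to CACGNG, JAG2 had 2 matches to CACGNG, and NOTCH1 and NOTCH2 had none of the motifs searched. Both strands were searched, and neither the palindromic E-box CACGTG nor the pair GGAAGGAA was found in any of the 8. Short motifs are common: of 27305 promoters of the same length, TGGGAA was in 21.1%, ACGTG in 18.7%, CACNAG in 32.0%, CACGNG in 26.5%, CACGTG in 6.49% and GGAAGGAA in 2.99%. A match describes letters in the window only, and no binding was measured here.

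The receptors were all expressed, and NOTCH3 was the highest of them in every library. NOTCH3 (chr19:15269849-15311806 on GRCh37, - strand) was at 37.2 and 30.1 FPKM in control normoxia, 68.3 and 61.4 FPKM in hypoxic control cells, 59.7 and 56.5 FPKM with eKD1, and 62.7 and 61.1 FPKM with eKD2. The 6 hypoxia libraries were all above both normoxia libraries, and in hypoxia only eKD2 overlapped with the control. NOTCH2 was at 22.6 and 20.3 FPKM in normoxia, 19.4 and 20.7 FPKM in hypoxic control cells, 22.1 and 22.4 FPKM with eKD1, and 23.9 and 24.4 FPKM with eKD2. NOTCH2 is uncertain in level because it has near-identical partial copies in the genome that can share its reads, and the row of 1 such copy, NOTCH2NL, ranged from 7.95 to 17.6 FPKM. NOTCH1 was at 9.28 and 10.3 FPKM in normoxia, 8.68 and 9.18 FPKM in hypoxic control cells, 9.54 and 10.5 FPKM with eKD1, and 9.08 and 9.44 FPKM with eKD2. NOTCH1 thus stayed within 8.68 to 10.5 FPKM in all 8 libraries, the narrowest span of the receptors in FPKM.

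Among the ligands, JAG2 and JAG1 were expressed at moderate levels and DLL1 was near 0. JAG2 was at 8.49 and 5.42 FPKM in control normoxia, 9.72 and 9.87 FPKM in hypoxic control cells, 10.6 and 12.1 FPKM with eKD1, and 12.8 and 12.1 FPKM with eKD2, with every hypoxia library above both normoxia libraries. JAG1 (chr20:10618332-10654647 on GRCh37, - strand) was at 5.01 and 2.10 FPKM in control normoxia, 4.33 and 3.58 FPKM in hypoxic control cells, 4.17 and 7.26 FPKM with eKD1, and 8.07 and 11.4 FPKM with eKD2. The duplicates of JAG1 differed widely in normoxia and eKD1, and the eKD2 libraries were the highest of the 8. DLL1 was at 0.0360 and 0.426 FPKM in normoxia, 0.0548 and 0.362 FPKM in hypoxic control cells, 0.288 and 1.16 FPKM with eKD1, and 0.307 and 0.142 FPKM with eKD2, and its groups overlapped, with eKD1 replicate 2 as the highest value. DLL1 lies opposite FAM120B on the other strand, a gene at 13.9 to 18.6 FPKM, and since the library kit does not mark strand their reads could not be told apart.

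Of the repressors, HES1 and HES6 were abundant, and HEY1 and HEY2 were barely detected. HES1 (chr3:193853937-193856521 on GRCh37, + strand) was at 44.9 and 40.8 FPKM in control normoxia, 28.8 and 29.3 FPKM in hypoxic control cells, 45.4 and 46.2 FPKM with eKD1, and 52.0 and 48.4 FPKM with eKD2. The control hypoxia libraries were thus the lowest of the 8, and all 4 eKD libraries were above both normoxia libraries, a difference that was not tested. HES6 (chr2:239146908-239149303 on GRCh37, - strand) was at 36.8 and 37.2 FPKM in control normoxia, 59.7 and 57.9 FPKM in hypoxic control cells, 56.1 and 55.3 FPKM with eKD1, and 60.5 and 49.4 FPKM with eKD2, with all 6 hypoxia libraries above the normoxia pair. HEY2 was at 0.260 and 0.129 FPKM in normoxia, 0.296 and 0.103 FPKM in hypoxic control cells, 0.131 and 0.177 FPKM with eKD1, and 0.513 and 0.597 FPKM with eKD2. The eKD2 libraries of HEY2 were the highest of the 8, and the other groups overlapped. HEY1 was at 0.264 FPKM and listed at 0 in normoxia, and at 0.146 and 0.153 FPKM in control hypoxia. With eKD1 it was at 0.0820 FPKM and listed at 0, and with eKD2 it was at 0.1004 and 0.0943 FPKM. An unnamed antisense gene is annotated over part of each of NOTCH1, NOTCH2, JAG1 and HES6, and HEY2-AS1 over HEY2, and reads from these could not be told apart.

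**Figure D1:**
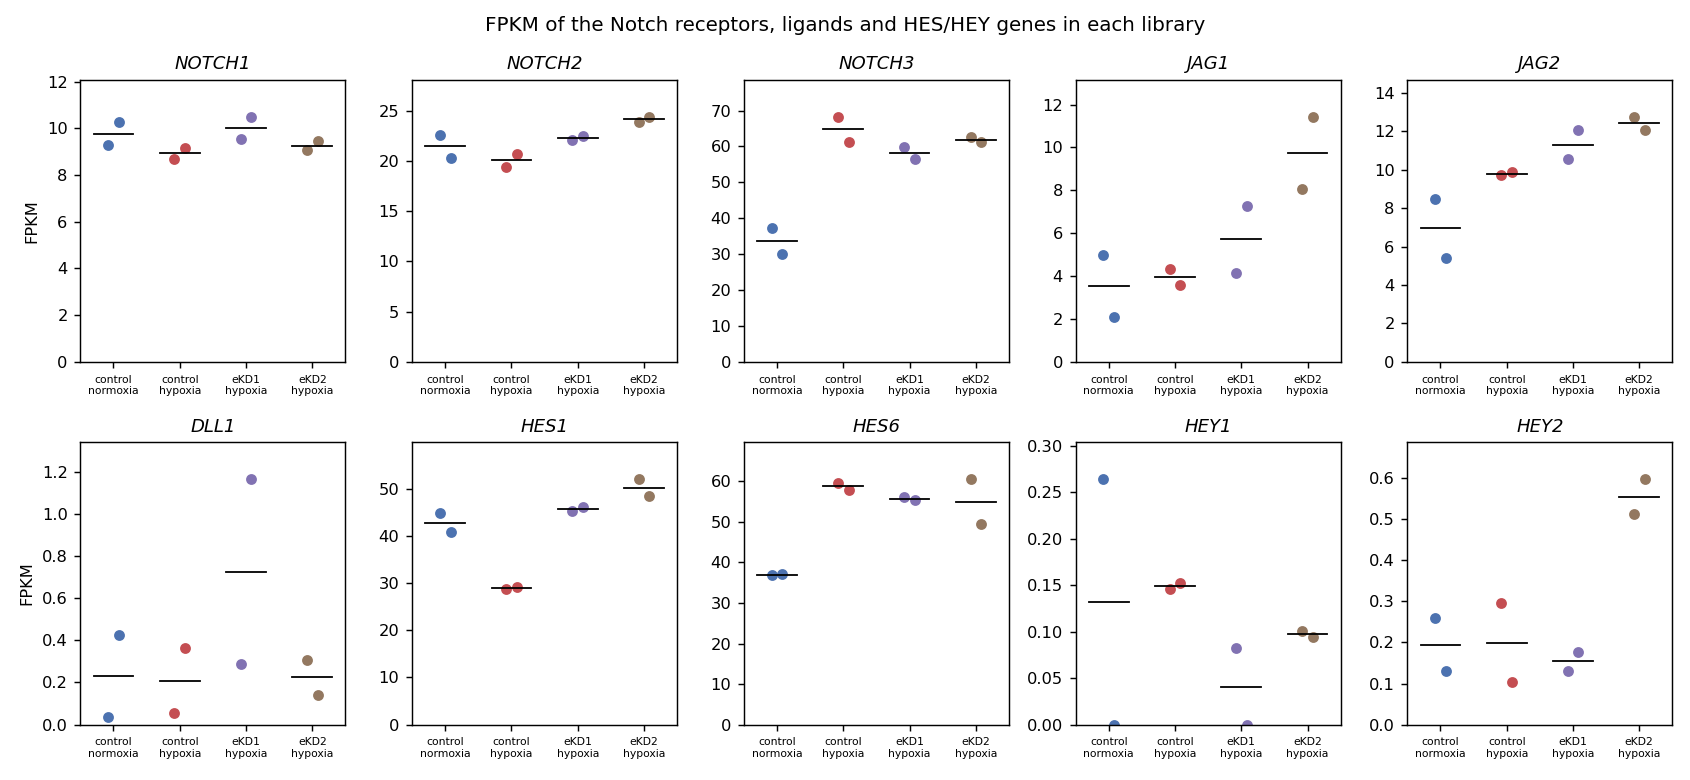
FPKM (linear vertical axes, each panel on its own scale from 0) of the 10 Notch receptors, ligands and HES/HEY genes, with 1 point per library and a bar at the mean of each group of 2. NOTCH3 and HES6 lie higher in all hypoxia libraries, HES1 is lowest in control hypoxia, and JAG1 is highest in eKD2, while DLL1, HEY1 and HEY2 stay near or under 1 FPKM.

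FPKM is scaled to transcript length, so levels were set in order between genes, with the limits of shared and antisense reads given above. In normoxia HES1 led with a mean of 42.9 ± 2.91 FPKM (SD, n = 2), followed by HES6 at 37.0 ± 0.287 and NOTCH3 at 33.6 ± 5.05 FPKM, and the libraries of the latter pair overlapped. In control hypoxia the order was NOTCH3, HES6, HES1, with means of 64.8 ± 4.93, 58.8 ± 1.28 and 29.1 ± 0.302 FPKM and no overlap between neighbors. The same order held in eKD1 and in eKD2, but in eKD2 the libraries of HES6 and HES1 overlapped. Below them came NOTCH2, and then NOTCH1, JAG2 and JAG1 in an order that varied: JAG2 passed NOTCH1 in the 3 hypoxia groups, and JAG1 reached the range of NOTCH1 in eKD2. DLL1, HEY1 and HEY2 were last in all 4 groups and overlapped with each other in both control groups. Among the genes tested, the mean of NOTCH3 over the 8 libraries was at percentile 81.4, HES6 at 80.5, HES1 at 76.2, NOTCH2 at 61.2, JAG2 at 43.6, NOTCH1 at 42.3 and JAG1 at 32.7.

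To find how hypoxia bears on these genes, control cells in 1% O2 were compared with control cells in normoxia. NOTCH3 and HES6 rose and HES1 fell, while the ligands and the other receptors did not pass the test. On the log2(FPKM + 1) scale, NOTCH3 rose by 0.93 (SE 0.136, 1.91-fold, adjusted p = 0.0186), and the hypoxia libraries were above both normoxia libraries. HES6 rose by 0.65 (SE 0.0634, 1.57-fold, adjusted p = 0.0099). HES1, the classical Notch-induced repressor, fell by 0.54 (SE 0.0832, 0.686-fold, adjusted p = 0.0203). Here and below, p-values came from limma with adjustment over the 15372 tested genes, calls needed an adjusted p under 0.05, and fold changes include the added 1 FPKM, which makes those of low genes too small. In a bulk sample, less RNA per cell and fewer cells of a kind cannot be told apart.

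The called genes made up 3 of 7, against 32.2% of all genes tested, with 2 called higher (background 16.2%) and 1 called lower (background 16%). The median change of the 7 was 0.196 and that of all genes 0.013. Among those not called, JAG2 differed by 0.47 with both hypoxia libraries above both normoxia libraries (adjusted p = 0.203), and JAG1 by 0.20 with overlapping groups (adjusted p = 0.721). NOTCH1 differed by -0.12 (adjusted p = 0.496) and NOTCH2 by -0.09 (adjusted p = 0.542). The standard errors were larger for the ligands, 0.232 for JAG2 and 0.379 for JAG1, than for these receptors, 0.120 for NOTCH1 and 0.103 for NOTCH2. The call of NOTCH3 was lost without the filter on low values (adjusted p = 0.0681), and with any 1 library left out no gene of the whole table was called. When the libraries were scaled to equal FPKM totals the median of all genes moved to -0.191, and all 3 genes kept their directions and calls.

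**Figure D2:**
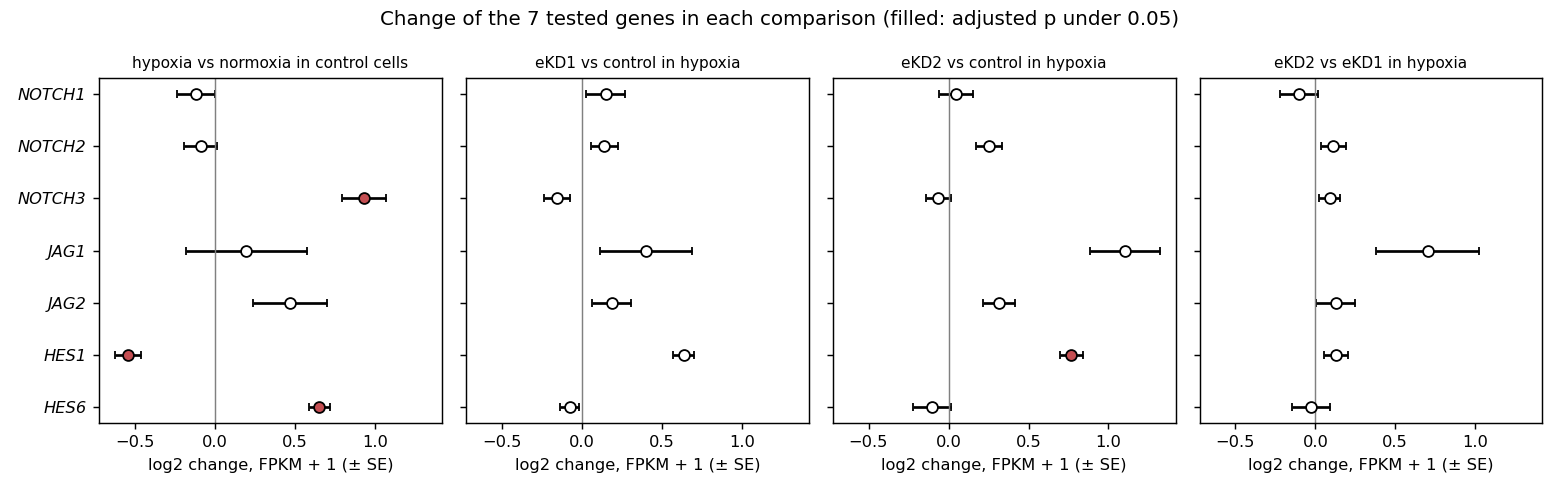
Difference in log2(FPKM + 1) for the 7 tested genes in each of the 4 comparisons, with bars for ± 1 SE from limma and filled points where the adjusted p was under 0.05. NOTCH3 (0.93), HES6 (0.65) and HES1 (-0.54) are filled for hypoxia, HES1 (0.77) is filled for eKD2, and JAG1 has the widest error bars in all 4 panels.

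The next comparison asked what changed in hypoxic cells when the LOXHD1 enhancer was silenced with the first guide. Of the 7 genes tested in eKD1 against control hypoxia, 0 were called, where 0.0651% of all genes were (10 genes, against 3337 at an unadjusted p under 0.05). HES1 was the 1 gene of the 7 at an unadjusted p under 0.05. Its level of 45.8 ± 0.611 FPKM in eKD1 against 29.1 ± 0.302 FPKM in control hypoxia (SD, n = 2) was a difference of 0.64 (SE 0.0660, 1.56-fold, adjusted p = 0.102), with both eKD1 libraries above both controls. The adjusted p of HES1 ranged from 0.0174 to 0.422 over the alternatives, and it passed the threshold without the filter (0.0420) and in a fit shared by all 8 libraries (0.0174).

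The remaining genes lay closer to the control in eKD1. The receptor NOTCH1 differed by 0.15 (adjusted p = 0.522), NOTCH2 by 0.14 (adjusted p = 0.415) and NOTCH3 by -0.15 (adjusted p = 0.372). For the ligands the differences were 0.40 for JAG1 (SE 0.289, adjusted p = 0.487) and 0.19 for JAG2 (adjusted p = 0.444). HES6 differed by -0.08 (adjusted p = 0.509). The groups overlapped for JAG1 alone among these, and the median of the 7 was 0.150 against 0.002 for all genes.

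With the second guide, HES1 was the gene that passed the test. In eKD2 it was at 50.2 ± 2.58 FPKM against 29.1 ± 0.302 FPKM in control hypoxia (SD, n = 2), a rise of 0.77 (SE 0.0725, 1.70-fold, adjusted p = 0.0292). The count was thus 1 of 7, against 9.61% of all genes called in either direction and 5.8% called higher. The HES1 call was lost without a variance trend (adjusted p = 0.0557) and with any 1 library left out (0.150 to 0.205). JAG1, a ligand of Notch receptors, was at 9.76 ± 2.39 FPKM in eKD2 against 3.95 ± 0.536 FPKM in control hypoxia, a difference of 1.10 (SE 0.218, 2.15-fold) that did not pass (adjusted p = 0.0615). It passed only with libraries scaled to equal totals (0.0494), a scaling that moved the median of all genes from 0.052 to 0.143.

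JAG2 and NOTCH2 were also at an unadjusted p under 0.05 in eKD2, as were 4 of the 7 genes in all and 5048 of all 15372 genes tested, but did not pass after adjustment. JAG2 differed by 0.32 (SE 0.101, adjusted p = 0.130) and NOTCH2 by 0.26 (SE 0.0823, adjusted p = 0.132), each with both eKD2 libraries above both controls. NOTCH1 differed by 0.05 (adjusted p = 0.795), NOTCH3 by -0.06 (adjusted p = 0.611) and HES6 by -0.10 (adjusted p = 0.597), with overlapping groups for all 3. The differences of NOTCH3 and HES6 changed sign under scaling to equal totals, to 0.04 and 0.00252. The median difference of the 7 genes was 0.255, against 0.052 for all genes tested.

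The guides were also compared with each other. Between eKD2 and eKD1, 0 of the 7 genes were called, where 0.403% of all genes were, and 0 of the 7 were at an unadjusted p under 0.05. JAG1 differed most, by 0.70 with a standard error of 0.323 (adjusted p = 0.293), and its eKD2 libraries were above those of eKD1. HES1 differed by 0.13 with an SE of 0.0721 (adjusted p = 0.365). The others were at 0.13 for JAG2, 0.11 for NOTCH2, 0.09 for NOTCH3, -0.03 for HES6 and -0.10 for NOTCH1, with adjusted p-values from 0.462 to 0.919. The lack of calls does not show that the guides act alike on these genes.

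The comparisons of hypoxia, eKD1 and eKD2 all use the same pair of control hypoxia libraries, so a low or high value in that pair enters all 3 and with opposite signs. Side by side, the differences of HES1 were -0.54 for hypoxia, 0.64 for eKD1 and 0.77 for eKD2. Those of NOTCH3 were 0.93, -0.15 and -0.06, and those of HES6 0.65, -0.08 and -0.10. Apart from that pair, the HES1 means in eKD1 and eKD2 were 45.8 and 50.2 FPKM beside a normoxia mean of 42.9 FPKM.

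DLL1, HEY1 and HEY2 did not reach the filter of 1 FPKM in at least 2 libraries. In a fit without the filter, 0 of the 3 were called in any comparison. HEY2 was higher by 0.43 on the log2(FPKM + 1) scale in eKD2 than in eKD1 (SE 0.0462, adjusted p = 0.118), and against control hypoxia it differed by 0.38 in eKD2 (adjusted p = 0.218) and by -0.05 in eKD1 (adjusted p = 0.894). HEY2 was at most 0.597 FPKM in any library.

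The rest of the pathway was measured through 10 lists of 77 gene symbols, of which 76, all but TLE5, were in the table and 56 were tested. In hypoxia 19 of the 56 were called, 9 higher and 10 lower, which is 33.9% and near the 32.2% of all genes. Without the filter on low values, 8 were called. Among other HES and HEY family genes, HES4 rose by 1.21 (SE 0.0982, adjusted p = 0.0084). Its levels were 10.3 and 9.58 FPKM in control normoxia, 23.8 and 24.8 FPKM in hypoxic control cells, 21.1 and 16.4 FPKM with eKD1, and 17.5 and 17.2 FPKM with eKD2. The eKD libraries of HES4 lay between the control groups, and its difference in eKD2 was -0.46 (adjusted p = 0.0522). HES7, at a mean of 2.37 ± 0.0819 FPKM (SD, n = 2) in control hypoxia, did not pass, HEYL reached at most 0.308 FPKM, and HES2, HES3 and HES5 were listed at 0 in all 8 libraries.

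Other genes that Notch can induce went both ways in hypoxia: all 5 tested were called, 2 higher and 3 lower, beside 32.2% of all genes called (16.2% higher and 16% lower). NRARP, a Notch target that feeds back on the receptor complex, rose by 1.00 (adjusted p = 0.0218), from 4.72 and 5.98 FPKM to 12.2 and 11.1 FPKM. CDKN1A, which encodes the cell cycle inhibitor p21, rose by 1.72 (adjusted p = 0.0090). GATA3, a transcription factor, fell by 1.48 (adjusted p = 0.0126), and MYC, a growth-promoting transcription factor, fell by 0.56 (adjusted p = 0.0160), from 209 and 235 FPKM to 152 and 149 FPKM. NOTCH3, HES6, HES4 and NRARP were above their normoxia levels in all 6 hypoxia libraries, whereas HES1 and MYC were lowest in control hypoxia. RBPJ, the DNA-binding partner of the Notch intracellular part, rose by 0.81 (adjusted p = 0.0494), from 29.3 and 20.4 FPKM to 43.4 and 43.6 FPKM, the 1 call among the 7 genes tested of the list of RBPJ and its coactivators. CREBBP in the same list varied from 23.1 to 380 FPKM, with 380 and 195 FPKM in single libraries of normoxia and eKD2.

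**Figure D3:**
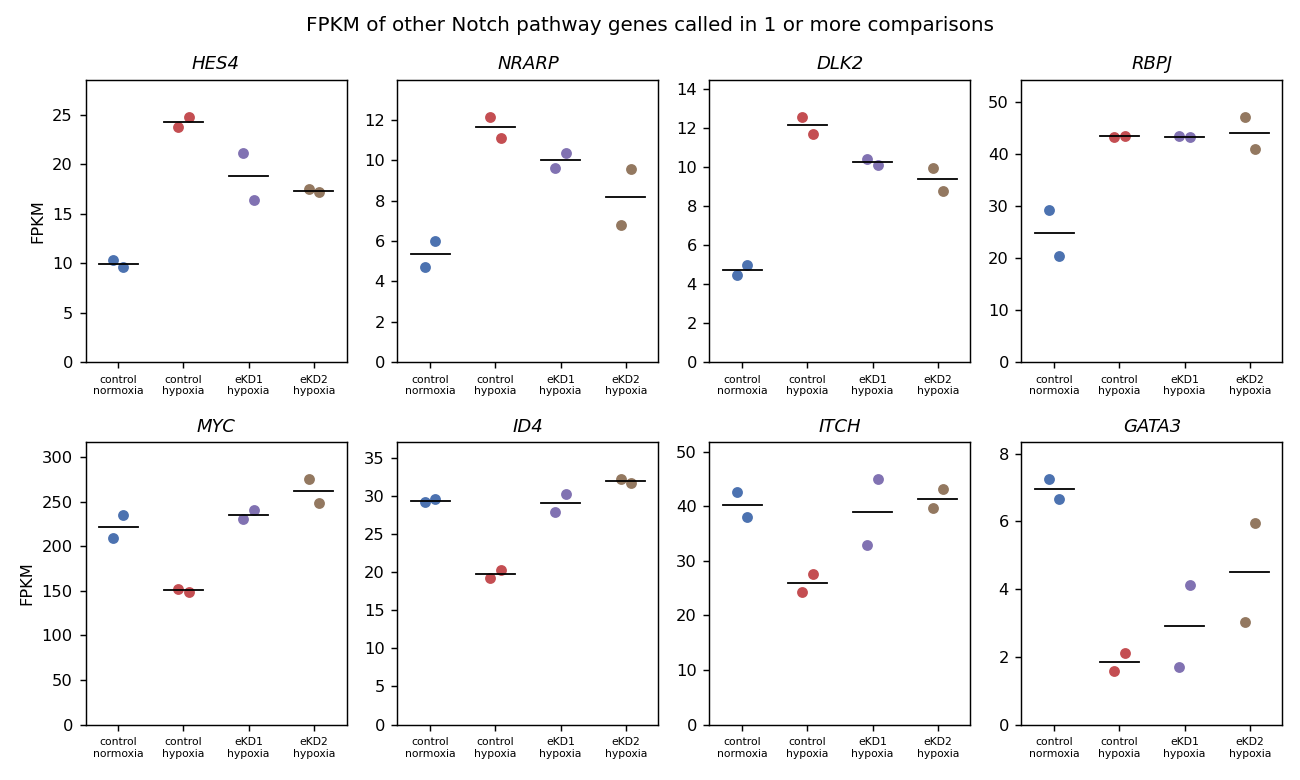
FPKM (linear axes from 0, each panel on its own scale) of 8 other Notch pathway genes called in at least 1 comparison, with 1 point per library and a bar at the mean of each group of 2. HES4, NRARP, DLK2 and RBPJ are higher in all hypoxia libraries than in normoxia, and MYC, ID4 and ITCH are lowest in control hypoxia.

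Upstream of the nucleus the calls in hypoxia were scattered. DLK2, a non-canonical ligand, rose by 1.20 (adjusted p = 0.0110), and it overlaps ABCC10, whose reads could not be told apart. Of 9 genes for receptor cleavage, the γ-secretase subunits APH1B and PSENEN rose by 1.16 (adjusted p = 0.0235) and 0.33 (adjusted p = 0.0390), and the others did not pass. POGLUT1, which glucosylates the receptor, fell by 1.07 (adjusted p = 0.0245), 1 of 4 sugar-adding enzymes tested. The ubiquitin ligase list for ligands had 0 of 3 called (1 at an unadjusted p under 0.05 in limma). ITCH, a ubiquitin ligase that acts on the receptor, fell by 0.62 (adjusted p = 0.0266) and was the 1 call among 9 inhibitors.

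Corepressors were called in 5 of 11, with 2 higher and 3 lower, beside the same 32.2% of all genes. FHL1, which can bind RBPJ, rose by 1.28 (adjusted p = 0.0067), whereas SPEN fell by 0.73 (adjusted p = 0.0441) and NCOR1 by 0.46 (adjusted p = 0.0327). The values are per gene, so the transcript forms of FHL1 could not be told apart. Of the proneural factors, which HES and HEY proteins are known to repress or oppose, NEUROG1, NEUROG2, NEUROG3, NEUROD1 and ATOH1 were all at or under 0.239 FPKM. The inhibitors of differentiation, a separate family kept in the same list, were expressed, and ID4 fell by 0.55 (adjusted p = 0.0189) and ID2 by 0.37 (adjusted p = 0.0109), 2 of 4 tested.

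In eKD1 the count of the 56 pathway genes called by limma was 0, where 0.0651% of all genes were called, with 8 at an unadjusted p under 0.05, as were 3337 of all 15372 genes. In eKD2 it was 5, all higher, which is 8.93% against 9.61% of all genes called in either direction and 5.8% called higher. MYC rose by 0.79 (adjusted p = 0.0280), from 152 and 149 FPKM in control hypoxia to 275 and 248 FPKM. ID4 rose by 0.67 (adjusted p = 0.0331), ITCH by 0.66 (adjusted p = 0.0432), ID3 by 0.32 (adjusted p = 0.0375) and CCND1, a cyclin of the G1 phase, by 0.31 (adjusted p = 0.0339). CCND1 overlaps LTO1, NCOR1 overlaps TTC19 and PIGL, and ITCH and PSENEN each overlap an unnamed protein-coding gene, and reads from these could not be told apart. The noncoding genes CASC11 and LNC-LBCS likewise overlap MYC and ID4. Other genes called in hypoxia also have noncoding overlaps, among them CDKN1A (DINOL), GATA3 (GATA3-AS1), ID2 (ID2-AS1), SPEN (SPEN-AS1) and NRARP (an unnamed gene). Between the guides 0 of 56 were called by limma, against 0.403% of all genes, with 9 at an unadjusted p under 0.05, as were 3623 of all 15372. The medians of the 56 were 0.017 in hypoxia, 0.063 in eKD1, 0.133 in eKD2 and 0.057 between the guides, beside 0.013, 0.002, 0.052 and 0.048 for all genes. The 5 calls in eKD2 became 1 without the filter on low values and 9 with equal FPKM totals, and 0 without a variance trend.

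**Figure D4:**
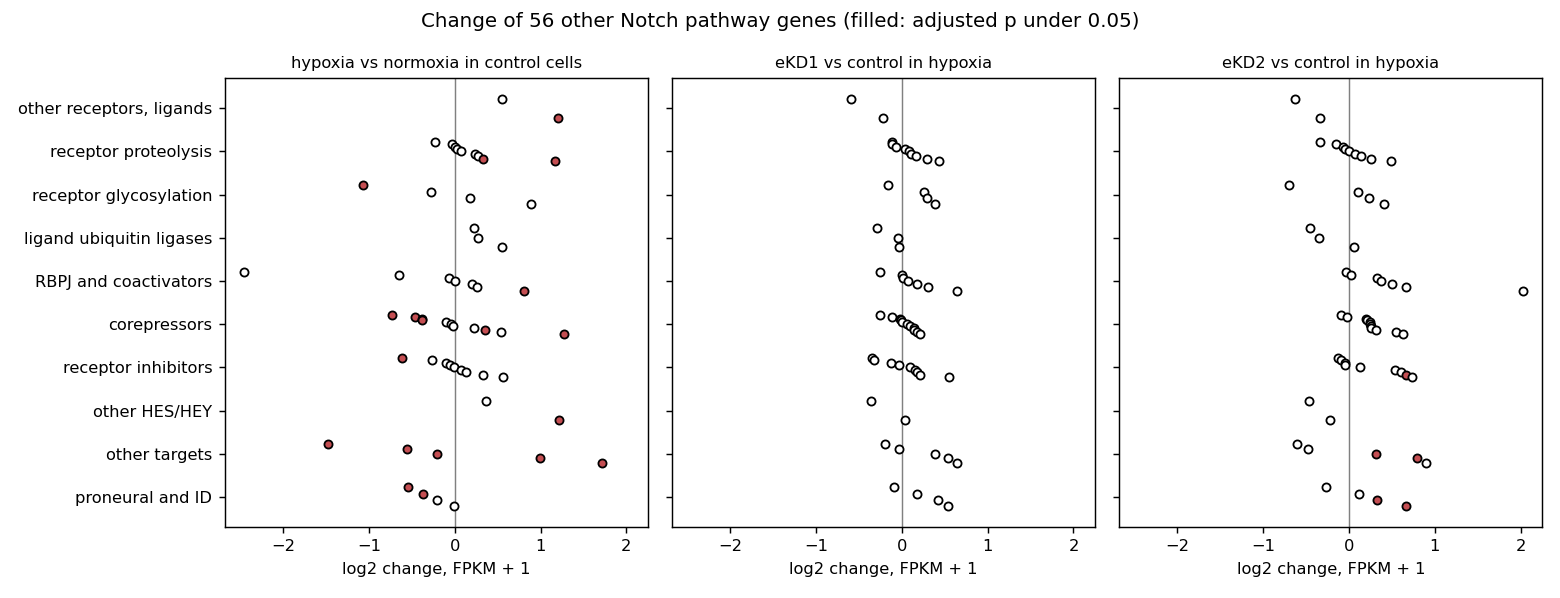
Difference in log2(FPKM + 1) for 56 other Notch pathway genes, with 1 point per gene in rows by function and filled points where the adjusted p from limma was under 0.05. In hypoxia 19 points are filled on both sides of 0, in eKD1 0, and in eKD2 5, all to the right.

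For the 4 tested genes whose group means spanned the widest range, the genes of most similar profile were sought among 10679 genes with a mean of at least 5 FPKM, by Pearson's r over the 8 libraries. The 8 points share their groups and their library depths, so r is given as a description. JAG1 was most like NNT-AS1 (r = 0.974), COMMD7 (r = 0.965) and RIC1 (r = 0.950). NOTCH3 was most like CSRP2 (r = 0.991), CLU (r = 0.991) and CNTFR (r = 0.990), all of which were lowest in normoxia. JAG2 was nearest to RAB3A (r = 0.992), CCNDBP1 (r = 0.986) and ARMC9 (r = 0.980). HES1 was nearest to DCAF6 (r = 0.977), JARID2 (r = 0.975) and NEK9 (r = 0.975), which were lowest in control hypoxia, as HES1 was. Among the genes of the pathway themselves, r was 0.94 between NOTCH3 and HES6 but -0.18 between NOTCH3 and HES1 and -0.22 between HES1 and HES6. With the other members, r of HES1 was 0.85 for NOTCH2, 0.55 for JAG1, 0.42 for NOTCH1 and 0.29 for JAG2. It was 0.85 between NOTCH3 and JAG2, 0.84 between JAG1 and JAG2, and 0.83 between NOTCH2 and JAG1.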

How the data were processed

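The deposited values are FPKM, which the authors computed with cufflinks and cuffnorm from single-end reads of poly-A libraries aligned with STAR to GRCh37, in 1 table of 60332 genes. Total reads are not recoverable from FPKM; relative depth, read from the steps between low values, was 55.7% to 100% of the deepest library, and precision rests on 2 replicates a group. Groups and replicate numbers came from the sample titles. The study's methods call the replicates biological duplicates, and p-values measure only the spread between them. The r between duplicates was 0.954 to 0.963, and between groups 0.920 to 0.956.

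A gene was tested where 2 or more of the 8 libraries had 1 FPKM or more (15372 genes), on log2(FPKM + 1) with limma 3.58.1 in R 4.3.3 (eBayes with a trend, two-sided), each comparison on its own 4 libraries, with Benjamini-Hochberg adjustment over all genes tested. The study tested read counts, which were not used here. Same-numbered replicates did not deviate together (r of -0.06 to 0.13), so numbers were not taken as pairs. Named genes were the 10 members, LOXHD1, up to 4 called genes with the largest change per pathway list and comparison, and the 3 genes most like each of 4 members. Other genes are named for their level or to complete a list, and a few listed genes are not reported here. Members and lists were chosen with earlier results of these data known. Promoters came from RefSeq (GRCh38.p14), and gene positions from GENCODE 44 on GRCh37. Alternatives are given in the closing section.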

Additional observations from a re-analysis of the deposited data

Results flagged for a closer look

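HEY2, a repressor of the HEY family, was flagged because its levels with the guides lay on opposite sides of the control. Both eKD1 libraries (0.131 and 0.177 FPKM) were below the control hypoxia mean of 0.199 FPKM, and both eKD2 libraries (0.513 and 0.597 FPKM) were above it. In the limma fit without a filter, the difference of eKD2 minus eKD1 was 0.43 on the log2(FPKM + 1) scale (SE 0.0462, adjusted p = 0.118), which did not pass. The control hypoxia libraries, at 0.296 and 0.103 FPKM, spanned both eKD1 values, and all of these levels were below the filter used for testing.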

How the results depend on the processing

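With duplicates, leaving out any 1 library left 1 residual degree of freedom and 0 genes called in every comparison, so those fits say little about stability: 0 members against 3 in hypoxia and 1 in eKD2, and 0 pathway genes against 19 and 5. Members called in hypoxia were 2 with the replicate block (HES1 lost) and 2 without a filter (NOTCH3 lost). In eKD1 the 0 became 1 without a filter and in the shared fit (HES1). In eKD2 the 1 became 2 with equal FPKM totals (JAG1 added), and 0 with the replicate block and without a variance trend. Pathway genes called in hypoxia were 8 without a filter and 9 with the replicate block, against 19. In eKD1 they were 4 in the shared fit, against 0. In eKD2 they were 1 without a filter, 9 with equal totals, and 0 with the replicate block or without a variance trend, against 5. Between the guides they were 5 in the shared fit, against 0. All genes called moved likewise: 4946 in hypoxia became 3024 without a filter and 2570 with the block; 10 in eKD1 became 206 without a filter, 761 in the shared fit, 6 without a trend and 0 with the block; 1477 in eKD2 became 853, 2601, 28 and 0; and 62 between the guides became 260, 1391, 5 and 0, and 105 with a mean filter of 5 FPKM. The numbers share only a label, so the block has no design behind it.

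Directions that turned were all of differences not called: NOTCH1 in eKD2 with median-of-ratios scaling (-0.017), and with equal totals NOTCH3 in eKD2 (0.041), HES6 in eKD2 (0.00252) and HES6 between the guides (0.00777). With 1 library left out, JAG1 in hypoxia ranged from -0.28 (without control normoxia replicate 2) to 0.67, NOTCH3 in eKD2 from -0.14 to 0.012 (without control hypoxia replicate 1), HES6 in eKD2 from -0.25 to 0.042 and HES6 between the guides from -0.17 to 0.12 (both without eKD2 replicate 2 at the upper end). HES1, NOTCH3 and HES6 kept their signs in hypoxia, and HES1 in eKD1 and eKD2, under all 12 alternatives of each. The cause of these changes was not tested. Genes near 0, as DLL1, HEY1 and HEY2 are, could not be resolved at this depth.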

Other observations

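The machinery that turns a bound Notch receptor into a nuclear signal was expressed in all 8 libraries, as levels of genes chosen after their values were seen. The sheddase ADAM10 was between 59.0 and 76.4 FPKM and the convertase FURIN between 63.7 and 122 FPKM. Of the γ-secretase subunits, APH1A was between 87.2 and 109 FPKM and NCSTN between 39.1 and 56.0 FPKM. Among the Mastermind coactivators, MAML1 was between 27.6 and 46.0 FPKM, MAML3 reached at most 1.29 FPKM and MAML2 at most 0.391 FPKM. Of the Fringe enzymes that lengthen sugars on the receptor, RFNG was between 36.3 and 56.1 FPKM, LFNG between 1.76 and 7.20 FPKM, and MFNG was listed at 0 in 6 of the 8 libraries. The other receptor, NOTCH4, reached at most 1.03 FPKM, DLL4 at most 0.0331 FPKM, and DLL3 was between 1.78 and 5.61 FPKM. APH1A overlaps C1orf54, NCSTN overlaps COPA, MAML3 overlaps MGST2, RFNG overlaps GPS1 and NOTCH4 overlaps GPSM3. Reads from these overlapping genes could not be told apart.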
